A study of Rattus norvegicus with 2 samples.

Results

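The genes described here are 10 genes of microglia, the resident macrophages of the brain: the complement genes C1qa, C1qb and C1qc, and Aif1, Cx3cr1, Csf1r, Itgam, Trem2, Tyrobp and P2ry12. They were chosen by name, as every non-control probe whose gene name in the array design is one of these, which gave 13 probes for 10 genes out of 26269 gene names and 30367 probes. Total RNA of the hypothalamic paraventricular nucleus, a centre of hormone release and sympathetic outflow, was measured on 1-colour Cy3 arrays. The control array held RNA of 12-week-old male Sprague Dawley offspring of control mothers, which received vehicle. The other array held RNA of male offspring of the same strain and age whose mothers had been given dexamethasone (200 µg/kg), a glucocorticoid drug, during the third trimester. Each group is 1 array, so the treatment could not be tested and no spread between animals can be had. The labels do not say whether an array held RNA of 1 animal or of several.

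Microglia depend on the receptor Csf1r for survival, sense neurons through Cx3cr1 and P2ry12, and signal phagocytosis through Trem2 and its adaptor Tyrobp. The C1q protein is assembled from A, B and C chains, starts the classical complement cascade, and tags synapses and debris for removal. In brain these genes are expressed mostly by microglia, so their level in a tissue block follows both the number of microglia and the RNA in each cell, which cannot be told apart in bulk RNA.

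All 10 genes lay close to equality between the arrays. None of the 10 reached 2-fold in either direction, beside 5.95% of 20145 measured gene names (2.73% higher and 3.22% lower in the dexamethasone array). None was past 1.5-fold, against 14.8% of all measured names, and none past 1.2-fold, against 40.6%. These shares include dim genes, whose differences are wider. Among names of at least the median signal, which include 9 of the 10 genes, they were 3.44% past 2-fold, 9.02% past 1.5-fold and 32.0% past 1.2-fold. The 10 differences ran from -0.10 (C1qc) to 0.24 (Tyrobp) on the log2 scale, with a median of 0.08 beside 0.02 over all measured names. Here and below a difference is dexamethasone minus control, in log2 of the scanner software's processed signal after subtraction of each array's 75th percentile. A gene was measured if a probe was well above background on both arrays, and took the value of its probe with the highest signal. The 2-fold rule is one of size and not a test. Across all measured names the quartiles of the differences were -0.21 and 0.21, and 43.0% of them lay between the lowest and the highest of the 10 genes.

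**Figure D1:**
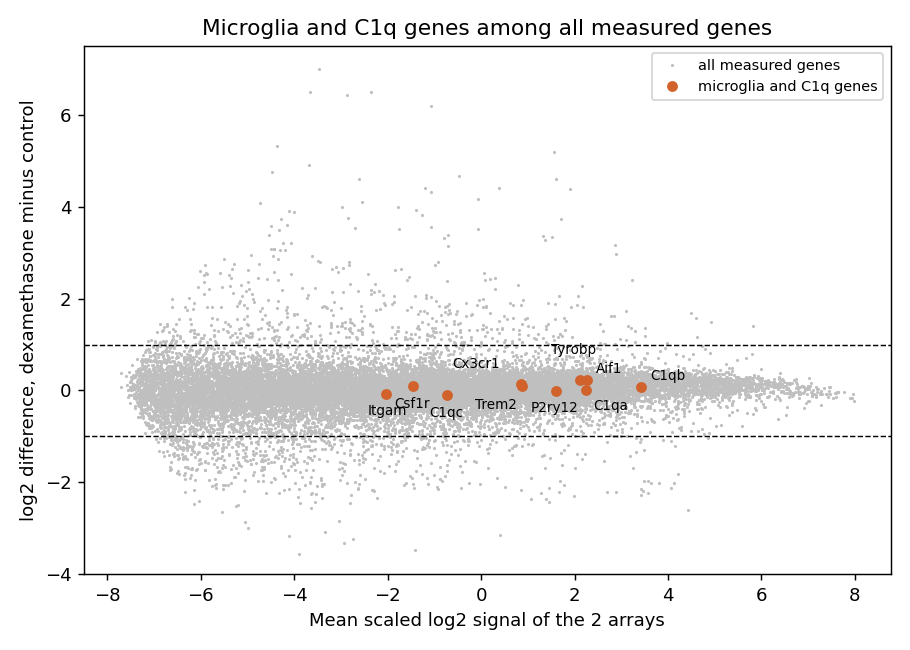
Each grey point is a measured gene name, with its mean scaled log2 signal over the 2 arrays on the x axis and its log2 difference, dexamethasone minus control, on the y axis; dashed lines mark 2-fold. The 10 microglia and C1q genes (orange) sit within -0.10 to 0.24, inside the dense band of genes of like signal.

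The probe sequences show what each value rests on. Both probes of Itgam are printed because they read overlapping stretches of its transcript and so bear on how far 2 probes of a gene agree. The probes of C1qa and C1qc are printed as those of the complement chains with the differences nearest to 0 and lowest. Sequences are those of the array files, 5′ to 3′, with rn4 positions as the files give them. Capitals mark the run that the Itgam probes share. The first Itgam probe lies at chr1:187385032-187385565, a span of 534 bases for a probe of 60, so it crosses an intron. The second lies at chr1:187385524-187385583, the C1qa probe at chr5:155662578-155662637 and the C1qc probe at chr5:155656638-155656697, both C1q probes on the minus strand.
Itgam probe 1: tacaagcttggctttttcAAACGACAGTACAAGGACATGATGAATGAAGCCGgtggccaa
Itgam probe 2: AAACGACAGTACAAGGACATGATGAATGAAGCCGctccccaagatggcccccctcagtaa
C1qa probe: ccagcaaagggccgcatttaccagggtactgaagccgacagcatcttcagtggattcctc
C1qc probe: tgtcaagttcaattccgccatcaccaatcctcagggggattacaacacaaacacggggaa
The Itgam probes overlap by 42 bases and share an unbroken run of 34, from position 19 of the first probe. Counted from 1 at the 5′ end of the first probe, the overlap holds 3 differences, G53C, G55C and G56C, with the base of the first probe written first.

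The C1q chains gave signals on both arrays that differed by less than the scanner's own error. Each probe was spotted once, so the only error of a single value is that of the scanner software, which is set at 10% of the signal and is somewhat larger for dim spots. C1qa, the A chain, had a processed signal of 6669 ± 667 (control) and 7088 ± 709 (dexamethasone), where ± is the scanner error of 1 spot, and a scaled difference of 0.01. C1qb, the B chain, had 14724 ± 1472 and 16344 ± 1634, a difference of 0.07. C1qc, the C chain, had 882 ± 88.3 and 867 ± 86.7, a difference of -0.10. The scanner error of each of these differences was 0.20, so all 3 chains lay within it, with 2 chains above 0 and 1 below. The 3 genes lie next to each other in the RefSeq gene table of the GRCr8 assembly, in the order C1qb, C1qc, C1qa, and their probes fall within 15108 bases of rn4 chromosome 5.

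A second measure of error comes from other probes that were spotted several times on each array. Over 1305 such probes the SD of the between-array difference among spots of a probe had a median of 0.041, far below the scanner's error, and neither covers the spread between animals. Near the signal of C1qa the median SD was 0.029 (145 probes), near C1qb 0.030 (74 probes) and near C1qc 0.043 (229 probes). The difference of C1qa was 0.42 times its SD, that of C1qb 2.53 times and that of C1qc 2.36 times. Differences of this size were common: of the measured genes within 0.5 log2 of the signal of C1qc, 70.5% differed at least as much either way, and 74.2% of those near C1qb did.

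**Figure D2:**
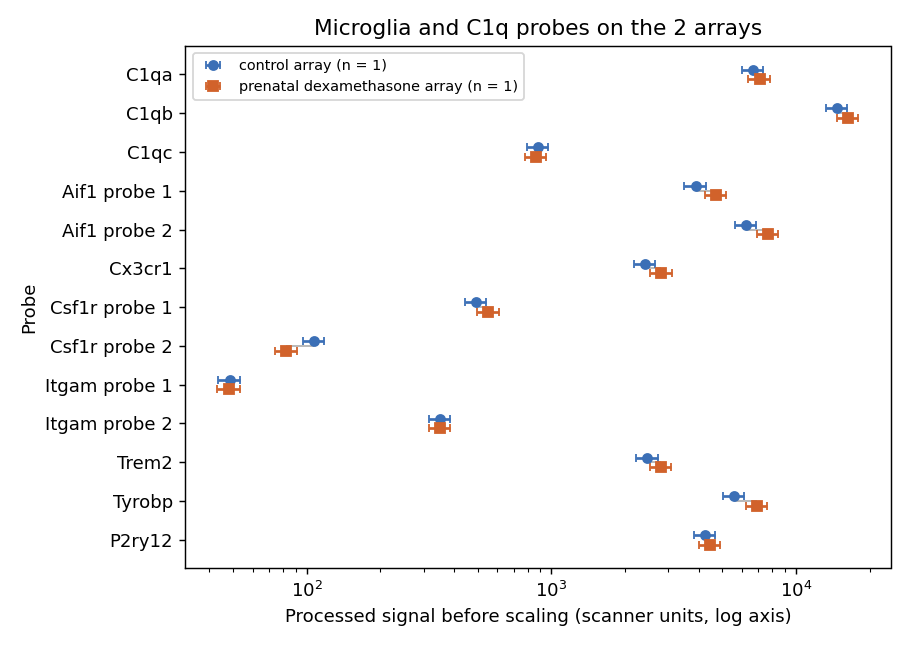
Processed signal before scaling (log axis) of the 13 probes on the control array (blue circles) and the prenatal dexamethasone array (orange squares), 1 spot per probe and array, with the scanner software's error as bars. The bars of the 2 arrays overlap for 10 of 13 probes; those of Tyrobp and the second probe of Aif1 (dexamethasone higher) and the second probe of Csf1r (control higher) do not. This overlap is of unscaled signals, and the dexamethasone array was brighter as a whole (75th percentile 1480 against 1404). Bars apart for Tyrobp and Aif1 therefore hold that shift as well.

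Among receptors of the microglial surface, the purine receptor P2ry12, which guides microglial processes to released nucleotides, was nearest to equality. Its signal was 4243 ± 424 (control) and 4458 ± 446 (dexamethasone), a scaled difference of -0.0045. Cx3cr1, the receptor for the neuronal chemokine fractalkine, had 2416 ± 242 and 2814 ± 281, a difference of 0.14. Both differences lay within the scanner error of 0.20, and of the measured genes of like signal 98.5% and 56.3% differed at least as much.

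Trem2, a lipid-sensing receptor of phagocytes, had a signal of 2468 ± 247 (control) and 2801 ± 280 (dexamethasone), a difference of 0.11. Tyrobp, the ITAM-bearing adaptor through which Trem2 signals, had 5570 ± 557 and 6926 ± 693. Its difference of 0.24, a fold of 1.18, was the highest of the 10 genes, at 1.17 times the scanner error and 8.04 times the repeated-spot SD of probes of like signal. Of the measured genes of like signal, 35.8% differed at least as much. The difference of Trem2 lay within its scanner error of 0.20, and 66.3% of the measured genes of like signal differed at least as much. The receptor and its adaptor were both above 0, as were 52.2% of all measured names. The gap between their 2 differences, 0.11 and 0.24, was smaller than the scanner error of either difference.

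Aif1, which encodes the calcium-binding protein IBA1 used to stain microglia, was the other gene near 0.2, on both of its probes. The first (rn4 chromosome 20, 3716146 to 3716205) had 3882 ± 388 (control) and 4717 ± 472 (dexamethasone), a difference of 0.21. The second (3716264 to 3716323) had 6245 ± 624 and 7658 ± 766, a difference of 0.22. The probes therefore agree to 0.013, while the median gap over 2617 names with 2 measured probes was 0.14. Among genes of the signal of the second probe, 37.8% differed at least as much.

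Csf1r, the receptor for colony-stimulating factor 1 and interleukin 34, was the gene on which the choice of probe mattered. Its probe of higher signal (rn4 chromosome 18, 57105231 to 57105932, a span of 702 bases and so across an intron) had 492 ± 49.2 and 553 ± 55.3, a difference of 0.09. Its other probe (57093036 to 57093095) had 107.2 ± 10.9 and 82.3 ± 8.52, a difference of -0.46, which is 1.37-fold lower and 2.18 times its scanner error. The raw spot of that probe stood at 2.19 times the local background in the control and 1.91 times in the dexamethasone array. The probes differed from each other by 0.55, a gap reached by 10.8% of names with 2 probes, so the sign for Csf1r is not settled by these arrays.

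Itgam, which encodes CD11b, the alpha chain of complement receptor 3 that binds C3 fragments, was near equality on both of the probes printed above. The first had a signal of 48.3 ± 5.04 (control) and 48.2 ± 5.09 (dexamethasone), and the second 350 ± 35.0 and 351 ± 35.2. The differences were -0.08 and -0.07, a gap of 0.0092 that 95.6% of names with 2 probes exceeded or equalled. These probes overlap by 42 of 60 bases, so they are not independent reads of the transcript. The repeated-spot SD near the signal of the first was 0.13, far above that gap. The raw spot stood at 1.69 and 1.78 times the local background on the first probe and at 6.50 and 6.75 times on the second. A signal of an array probe is a property of the probe as well as of the transcript, so levels are not compared between genes or probes here.

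**Figure D3:**
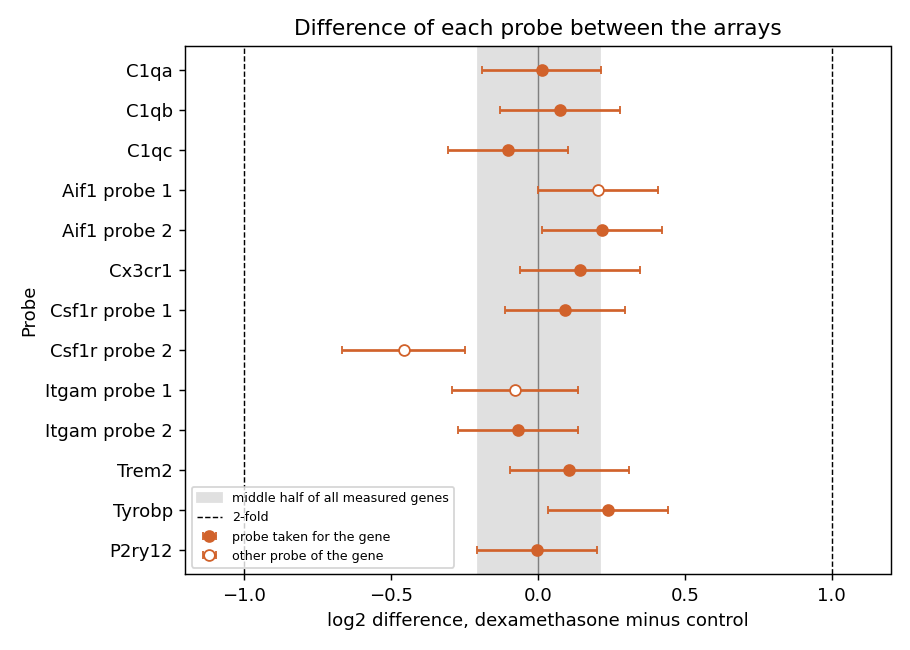
The log2 difference, dexamethasone minus control, of each of the 13 probes with the scanner software's error of the difference as bars, filled for the probe taken for the gene and open for the other probe of Aif1, Csf1r and Itgam. The bars of 9 probes cross 0. The grey band runs between the quartiles of all measured genes (-0.21 to 0.21) and the dashed lines are 2-fold; the second Csf1r probe, at -0.46, lies farthest from 0.

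**Figure D4:**
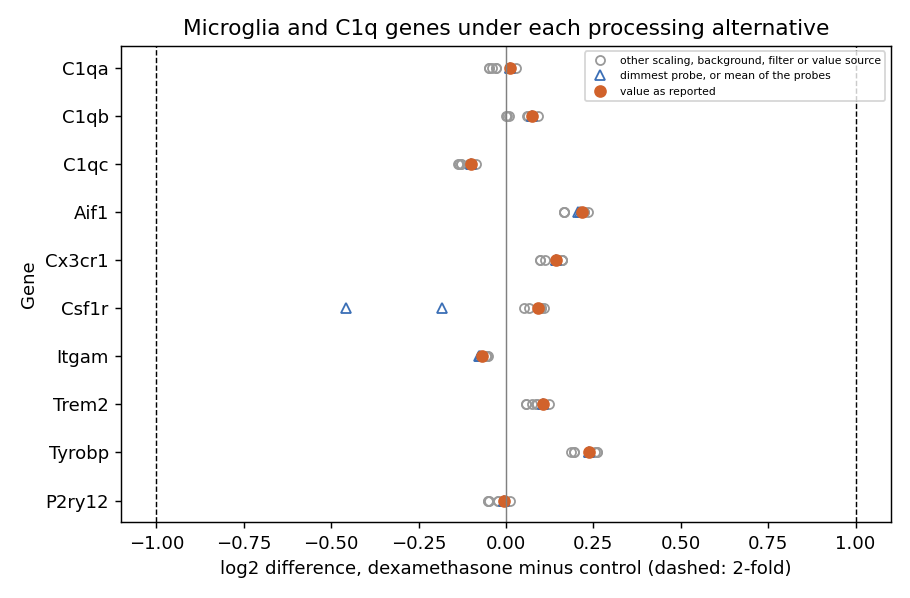
The log2 difference of each gene as reported (orange) and under the processing alternatives (grey circles, or blue triangles where a gene took its dimmest probe or the mean of its probes). Every value lies inside 2-fold, and only Csf1r moves from its reported 0.09 by more than the scanner error of 0.20, to -0.46 and -0.18.

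Other genes of resting microglia were mostly near equality as well. These and the following lists were written with the array's other results known, and they are described by counts without a test. Their signals and summed signals are given before scaling, control first, whereas the differences are scaled. Of 22 listed genes 20 were measured, with a median of 0.07, 15 above 0 and 5 below. Of the 20, 1 (5%) was at least 2-fold higher and 0 lower, beside 2.73% and 3.22% of all measured names. Tmem119, a surface marker of resident microglia, had signals of 803 and 772, a difference of -0.13 (-0.28 on its other probe). Ctss, a lysosomal protease, had 13751 and 13713 (-0.08), and Laptm5, a lysosomal membrane protein of leukocytes, 9366 and 10466 (0.08). The secreted protein gene Olfml3 was at 0.41 and the prostaglandin D synthase Hpgds at 0.39.

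The exception was Rgs10, a regulator of G protein signalling expressed by microglia and also by neurons. Its signals were 2828 (control) and 10502 (dexamethasone), 3.52-fold higher after scaling (1.82, 1 probe). It stayed past 2-fold in all 13 settings, from 1.74 to 1.83.

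Ligands and signalling partners of the 10 genes did not pass 2-fold, beside 5.95% of all measured names that did. All 20 listed were measured, 16 above 0 and 4 below, with a median of 0.11. The ligands of Csf1r were at 0.09 (Csf1, 991 and 1114) and 0.16 (Il34, 8000 and 9444), and Cx3cl1, the fractalkine ligand of Cx3cr1, was at -0.19 (116712 and 107728). Itgb2, the beta chain that pairs with Itgam, was at 0.13 (212 and 244), close to equality like its partner. The kinase Syk, which Tyrobp recruits, was at 0.20, Fcer1g, another ITAM adaptor, at 0.26 on both of its probes, and the phospholipase Plcg2 downstream of Trem2 at -0.55 (111 and 79.8). Apoe, a lipid carrier that Trem2 binds, was at 0.06 (222735 and 244620), and Clu, another such carrier, at 0.24.

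The proteases that C1q carries were farther from equality than C1q itself. C1r had signals of 346 and 692, 1.90-fold higher in the dexamethasone array (0.93), and C1s 194 and 336, 1.64-fold higher (0.72), while the C1q chains lay between -0.10 and 0.07. Their inhibitor Serping1 had 1439 and 2958 (1.95-fold, 0.96). All 3 are also genes of fibroblasts and vessels. Of the genes of meninges and fibroblasts 9 of 9 measured were above 0, with a median of 0.80 and summed signals of 78259 (control) and 142574 (dexamethasone). Of the vessel genes, 4 of 12 endothelial ones were above 0 (median -0.06), and 2 of 9 of pericytes and smooth muscle (median -0.16). The part of such cells in the values of C1r, C1s and Serping1 was not tested.

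Of 47 listed genes of the complement cascade and its regulators, 37 were measured, with 19 above 0, 18 below and a median of 0.08. Of the 37, 1 (2.70%) was at least 2-fold higher and 0 lower, beside 2.73% and 3.22% of all measured names. It was Nptx1, a neuronal pentraxin, with 1120 and 4433 (3.76-fold, 1.91), which is also a gene of cortical neurons. C3, the central component, was at 0.12 (921 and 1052), C4b at -0.07 (2860 and 2871) and C2 at -0.03. The receptors for activated fragments, C3ar1 and C5ar1, were at 0.10 and -0.14. C1qbp, a mitochondrial protein named for binding C1q, was at -0.04 (33387 and 34137), and the regulators Cd55 and Cd46 were at 0.11 (-0.65 on the other probe of Cd55) and -0.74 (38.8 and 24.5). Masp2 was well above background on the control array alone, with dim signals of 7.73 and 7.21. Their ratio of 1.13 after scaling is the observed one and sets no lower bound on its difference. Neither array gave a signal well above background for C4bpa, C8a, C9, Itgax, Mbl1 or Mbl2.

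Genes of proteins that share the C1q domain without being complement components were more spread than the C1q chains. Of 18 measured, 2 (11.1%) passed 2-fold upwards and 1 (5.56%) downwards, beside 2.73% and 3.22% of all measured names. The median was 0.21, and the SD was 0.65 beside 0.54 over all measured names. Cbln2, a synaptic organiser, had 21749 and 10576 (-1.12). C1qtnf6 was at 1.17 (374 and 887), with 0.73 on its other probe. C1ql4 was at 1.16 from dim signals of 25.1 and 59.1, and at 0.51 with normexp background correction.

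Genes that microglia raise when they become reactive were mixed. Of 31 listed, 26 were measured, with 17 above 0, 9 below and a median of 0.10. Of the 26, 1 (3.85%) was at least 2-fold higher and 0 lower, beside 2.73% and 3.22% of all measured names. Spp1, which encodes osteopontin, was 4.40-fold higher (137 and 636, 2.14), and Lpl, lipoprotein lipase, and Gpnmb, a lysosomal glycoprotein, lay just under 2-fold at 0.98 and 0.95. The lysosomal marker Cd68 was at -0.14 (341 and 326), the cathepsins Ctsb and Ctsd were both at 0.10, and Lgals3 was at 0.23. The cytokines Tnf and Il1b were at -0.34 and -0.16, and Cst7 at -0.15. Ptgs2, the inducible cyclooxygenase, which cortical neurons also express, passed the background criterion only on the dexamethasone array (5.70 and 66.0), at least 10.68-fold higher. Clec7a, Itgax and Cd80 did not pass it on either array.

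Of 11 transcription factors of the myeloid lineage, 10 were measured, with a median of 0.52. Of the 10, 3 (30%) were at least 2-fold higher and 0 lower, beside 2.73% and 3.22% of all measured names. Spi1, which encodes PU.1, the lineage factor of macrophages, was at 0.18 from dim signals of 31.9 and 38.04. Cebpb had 1117 and 2958 (1.33) and Maf 125 and 331 (1.33). The median of the list was 0.18 with normexp and 0.12 without background correction, where 2 and 1 of the genes were at least 2-fold higher, whereas Cebpb stayed between 1.30 and 1.35. Mef2c, also a factor of cortical neurons, was at 0.75 (4709 and 8319). Irf8 was well above background on the control array alone, with dim signals of 11.1 and 9.11. Their ratio of 1.29 after scaling is the observed one and sets no lower bound on its difference.

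**Figure D5:**
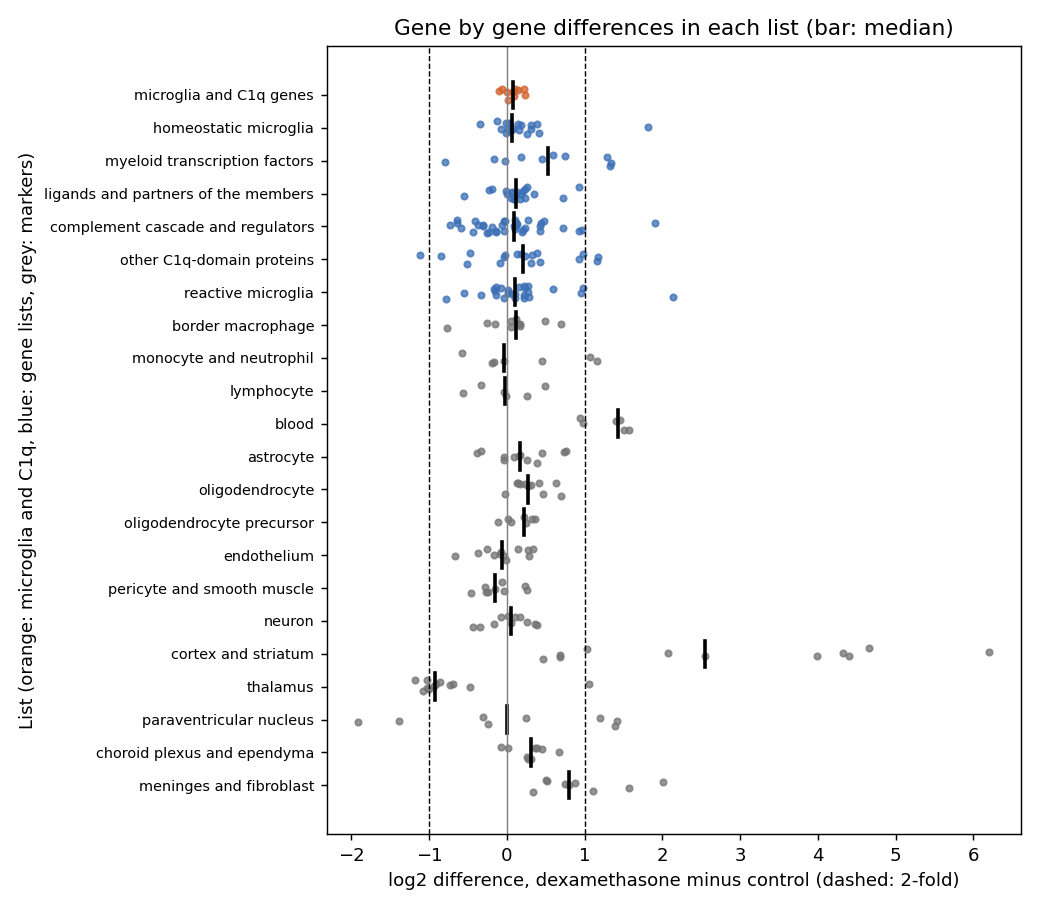
Each point is a measured gene of a list (orange for the 10 microglia and C1q genes, blue for other gene lists, grey for cell and region markers), placed by its log2 difference, dexamethasone minus control; the black bar is the median of the list and the dashed lines are 2-fold. The 10 genes span -0.10 to 0.24, while cortex and striatum markers have a median of 2.55, blood markers 1.43 and thalamus markers -0.93.

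Macrophages and leukocytes of other compartments share part of these genes, so their markers were read on the same arrays. Border macrophage markers were measured for 11 of 13 genes, with a median of 0.12, differences from -0.77 to 0.70 and summed signals of 1294 and 1489; Mrc1 (11.5 and 10.9) and Cd163 (32.7 and 37.98) were dim. Of 14 monocyte and neutrophil markers 7 were measured, with summed signals of 364 and 555 and a median of -0.04, and Plac8 (127.2 and 299.8, 1.16) and S100a8 (10.5 and 23.2, 1.07) were past 2-fold. Neither was past 2-fold with normexp or without background correction. Np4 (1.54 and 26.6, at least 4.30-fold higher) and Ly6c (5.24 and 9.30, at least 1.51-fold higher) passed the background criterion only on the dexamethasone array. Ccr2, Cxcr2, Elane and Ngp passed the background criterion on neither array. Of 16 lymphocyte markers 6 were measured, with a median of -0.02. Their summed signals were 357 and 365 before scaling, a ratio of 0.97 (dexamethasone over control) after it. Cd3e (1.39 and 57.1, at least 9.25-fold higher) passed the criterion only on the dexamethasone array, while Cd5 and Gzmb were among those that did so only on the control array. Red cell genes were higher: 6 of 6 measured were above 0, with a median of 1.43 and summed signals of 93579 and 272542. Of the 6, 4 were at least 2-fold higher, beside 2.73% of all measured names.

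The blocks of tissue on the arrays also differed in regional markers. Of 11 measured cortex and striatum markers 8 were at least 2-fold higher (median 2.55, summed signals 5627 and 28672), and of 12 thalamus markers 4 were at least 2-fold lower and 1 higher (median -0.93, 161158 and 93903). Among all measured names 2.73% were at least 2-fold higher and 3.22% lower. Of 10 paraventricular markers 8 were measured, of which 3 passed 2-fold upwards and 2 downwards, with a median of -0.00058. The hormone genes Avp (3464 and 970, -1.91) and Oxt (1455 and 587, -1.38) were the lower ones, and Crh (230 and 636, 1.39, with 1.55 on its other probe), Sst (7602 and 21299.9, 1.41) and Mc4r (30.8 and 74.5, 1.197) the higher. Those 5 genes were well above background on both arrays, while Otp passed the background criterion only on the dexamethasone array (1.92 and 8.26). Astrocyte, oligodendrocyte, endothelial and neuron markers had medians of 0.16, 0.27, -0.06 and 0.06, with none past 2-fold on the probe of highest signal. The astrocyte gene Gfap was at 0.73 on that probe (929 and 1624) and at 1.14 on its other probe. Markers of oligodendrocyte precursors, of pericytes and smooth muscle, and of choroid plexus and ependyma had medians of 0.22, -0.16 and 0.31, also with none past 2-fold on that probe. The 10 microglia and C1q genes had a median of 0.08 in the same comparison. The part of these regional differences in the values of the 10 genes was not tested.

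Promoter sequences from RefSeq (GRCr8, windows of 300 bases across the start of the gene) were held for 6 of the 10 genes and were searched for GAGGAA, the core letters of PU.1-type sites, on both strands. C1qb, Csf1r, Itgam and Trem2 held it and C1qa and Cx3cr1 did not, so 4 of 6 held it, beside 27.6% of 33469 promoters. A match describes these letters and is not a binding site. C1qc, Aif1, Tyrobp and P2ry12 had no entry.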

How the data were processed

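Each array's deposited file gives linear intensity per spot; both arrays were on 1 slide, so slide position and group cannot be told apart. Feature Extraction subtracted background and detrended the intensity; its version is 10.7.1.1 per the file headers and 9.5.1.1 per the submitters' processing notes. The authors' value table holds intensities with a median of 149.9 in both columns, and its scaling steps are unknown here. It gave the same counts past 2-fold as quantile normalization (570 higher, 624 lower), so these 2 settings are nearly the same alternative. Probe positions are on rn4, per the file headers.

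Spots with an outlier mark (267 control, 249 dexamethasone, none on the probes described) were left out, no spot was saturated, repeated spots were averaged as log2, and each array's 75th percentile (1404 and 1480) was subtracted. Of 30367 probes, 24141 and 23747 were well above background. The number of arrays limits the precision. The steps were tested on simulated data, in which known folds were given to genes above the median signal on copies of the control array. That simulation does not cover changes of dim probes or the spread between animals. Of 13 member probes, 12 carried an accession that leads to the same symbol in the RefSeq table; no other probe led to a member.

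The genes, the 6 gene lists and the 15 marker lists were chosen with earlier results of these data known. Named genes are all members with all probes and, per gene list, the 3 with the largest difference, all past 2-fold and the 3 of highest signal; others were added after their values were seen. The 14 alternatives used limma 3.58.1 for normexp (offset 50), quantile and cyclic loess; other scaling, filters, probe rules, names and fold rules, and the value table, were also tried. A few listed genes are counted in their lists but are not reported here by name.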

Additional observations from a re-analysis of the deposited data

How the results depend on the processing

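The count of microglia and C1q genes past 2-fold was 0 under every alternative run (of 10 genes, or of 9 among bright genes alone), and also with a 1.5-fold rule. With a 1.2-fold rule it was 0, except 1 (Csf1r) where genes took their dimmest probe. Their median difference lay between 0.03 and 0.10 over 13 settings. The lowest value came with quantile normalization. Aif1, C1qb, Cx3cr1, Trem2 and Tyrobp were above 0 and C1qc below 0 in all 13 settings, and Itgam was below 0 in the 12 that measured it, since the filter for bright genes removed it. C1qa ranged from -0.05 to 0.03 and P2ry12 from -0.05 to 0.01, so their signs changed with the processing. All settings reprocess the same 2 arrays, so a sign kept across them is not thereby settled. C1qb went down to 0.0014, and the reported differences of C1qb, C1qc, Cx3cr1, Trem2 and Itgam lay within the scanner error. Csf1r was at -0.46 with its dimmest probe and -0.18 with the mean of its probes. The share of all measured genes past 2-fold ran from 2.84% (no background correction, 309 higher and 264 lower) to 9.92% (no filter on dim probes, 1205 and 1399), beside 549 and 649 as reported. Of those past 2-fold, 45.8% were higher as reported, 54.5% with normexp (314 and 262) and 58.5% among bright genes alone (203 and 144). No paired analysis was possible because each group holds 1 array, and no array could be left out. Signal over background limits the dim probes of Csf1r and Itgam most.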
